A study of Mus musculus with 15 samples.

Results

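The 10 imprinted genes described here are H19, Igf2, Igf2r, Grb10, Plagl1, Dlk1, Meg3, Rian, Mest and Peg3. They were taken by symbol from a table of 44674 mouse genes, and they were chosen on their measured CPM (counts of a gene scaled to a fixed library total) over the conditions, so their own levels and fold changes are given below as a description, without a test. Each symbol matched 1 row, and all 10 passed the filter on low counts that left 19401 genes.

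Imprinted genes are transcribed mainly from the copy inherited from 1 parent, and many of them act on growth before and after birth. Igf2 and Dlk1 are transcribed from the paternal copy and encode a growth factor and a membrane protein related to Notch ligands, while H19, Meg3 and Rian are long non-coding RNAs of the maternal copy in the same chromosomal domains. Igf2r encodes the receptor that removes IGF2 from the cell surface, and Grb10 an adaptor that dampens insulin and IGF receptor signalling. Counts per gene do not separate the parental copies, so nothing below is a measure of imprinting itself.

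Bulk RNA-seq covered 15 libraries in 8 conditions. BM endothelial cells (BMECs, as labelled) and lung cells came from mice labelled WT, aged 4 to 6 months and carrying Tie2-CreERT2 and Rosa26-tdTomato, in which tamoxifen turns on tdTomato in cells using the Tek promoter, and were cultured in EGM-2 medium. P0 cells were sorted as CD45- tdTomato+ and then as Emcn+ or Emcn- (Emcn is endomucin, a surface sialomucin of venous and sinusoidal endothelium). The sorted Emcn- BMECs were carried through passages P1 to P4, and the lung cells were also Emcn-. BM MSC (mesenchymal stromal cells) were tdTomato+ cells of Osx-Cre;Rosa26-tdTomato mice, grown in another medium. The tdTomato reporter was thus shared, while genotype (Osx-Cre in place of Tie2-CreERT2) and medium differ together between MSC and the other groups. Every condition had 2 libraries except P4, which had 1. By the labels, replicate 1 of P0 and lung is batch d and replicate 2 is batch a, replicate 1 of P1 to P4 is batch b, and replicate 2 of P1 to P3 shares batch c with both MSC libraries. Batches a and d thus hold the P0 and lung libraries alone and b and c the passaged and MSC ones, and across this division condition and batch cannot be told apart. Usually 1 mouse gave 1 dish, but the labels do not say which libraries are separate mice, and p-values then measure only the spread between libraries.

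Library totals ran from 9914620 to 39718807 counts, so that 3 counts equal 0.0755 to 0.303 CPM. The smallest library, P0 Emcn- replicate 2, stands apart from replicate 1. The cycling genes summed to 137 CPM against 1078 CPM in replicate 1, and Mki67, a marker of dividing cells, had 15.5 against 478 CPM. The lung libraries differed the same way, with 1336 CPM of cycling genes in replicate 1 and 247 CPM in replicate 2. The 9 endothelial markers summed to 9738 and 11699 CPM in P0 Emcn+ cells, 70.4 to 254 CPM in P0 Emcn- cells, 167 to 755 CPM in lung, 44.2 to 70.5 CPM in passaged cells and 39.9 to 341 CPM in MSC. Fibroblast markers ran the other way, from 229 to 312 CPM in P0 Emcn+ cells and from 4482 to 20830.3 CPM elsewhere. The cells labelled Emcn- BMECs therefore carried the fibroblast set far above the endothelial set, and they are called Emcn- cells below. The part of these differences in the levels of the imprinted genes was not tested.

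In GENCODE M21 (GRCm38) H19 (ENSMUSG00000000031) lies at chr7:142575529-142578143 on the minus strand and Igf2 (ENSMUSG00000048583) at chr7:142650766-142666816, also minus, with 72.6 kb between them. Dlk1 (ENSMUSG00000040856, chr12:109452823-109463336), Meg3 (ENSMUSG00000021268, chr12:109541001-109571726) and Rian (ENSMUSG00000097451, chr12:109603940-109661716) follow each other on the plus strand, with 77.7 kb and 32.2 kb between neighbours. Mest (ENSMUSG00000051855) is at chr6:30723547-30748465, Peg3 (ENSMUSG00000002265) at chr7:6703892-6730431, Plagl1 (ENSMUSG00000019817) at chr10:13060504-13131694, Grb10 (ENSMUSG00000020176) at chr11:11930508-12038683 and Igf2r (ENSMUSG00000023830) at chr17:12682406-12769664. Igf2r overlaps the antisense RNA Airn, and Mest overlaps Copg2. The strand setting of the counting is not given in the sources used here, so reads of such pairs may not be fully separated.

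The starts of 4 genes are shown because Dlk1, Meg3 and Rian correlated over the libraries (r from 0.77 to 0.96) and Mest correlated negatively with Dlk1 (-0.88). Without the P0 Emcn+ libraries the pairs among Dlk1, Meg3 and Rian gave 0.63 to 0.84. Some members on different chromosomes correlated as highly over all libraries, such as H19 with Meg3 (0.91) and Plagl1 with Rian (0.92). Others did not, such as Igf2 with Dlk1 (0.08). Mest with Meg3 and Rian gave -0.61 and -0.64, and -0.25 and -0.39 without the P0 Emcn+ libraries. In MSC, Dlk1 was low while Meg3 and Rian were present, as given below. Each window is RefSeq sequence of GRCm38.p6, plus strand, from 250 bases before to 50 bases after the annotated start, and capitals mark TGACGTCA (a cyclic AMP response element) and TATAAA read on either strand. The windows are chr12:109452573-109452872 for Dlk1, chr12:109540746-109541045 for Meg3, chr12:109603695-109603994 for Rian and chr6:30737800-30738099 for Mest. Meg3 and Mest have further annotated starts.
Dlk1: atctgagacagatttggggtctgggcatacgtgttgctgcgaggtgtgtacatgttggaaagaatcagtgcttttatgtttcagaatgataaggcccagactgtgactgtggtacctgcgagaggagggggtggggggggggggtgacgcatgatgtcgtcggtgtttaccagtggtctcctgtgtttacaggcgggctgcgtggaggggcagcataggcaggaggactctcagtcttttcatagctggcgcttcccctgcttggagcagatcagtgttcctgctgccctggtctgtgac
Meg3: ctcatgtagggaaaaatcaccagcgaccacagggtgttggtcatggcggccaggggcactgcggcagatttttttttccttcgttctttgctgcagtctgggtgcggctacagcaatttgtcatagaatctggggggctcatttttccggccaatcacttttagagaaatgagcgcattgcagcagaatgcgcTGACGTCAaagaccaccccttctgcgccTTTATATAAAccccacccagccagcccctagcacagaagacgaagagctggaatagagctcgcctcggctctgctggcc
Rian: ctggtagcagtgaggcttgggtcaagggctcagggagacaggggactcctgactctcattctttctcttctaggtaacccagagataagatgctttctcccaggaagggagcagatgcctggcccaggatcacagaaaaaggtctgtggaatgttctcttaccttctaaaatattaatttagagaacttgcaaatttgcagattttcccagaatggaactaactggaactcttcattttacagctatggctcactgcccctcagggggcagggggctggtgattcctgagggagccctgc
Mest: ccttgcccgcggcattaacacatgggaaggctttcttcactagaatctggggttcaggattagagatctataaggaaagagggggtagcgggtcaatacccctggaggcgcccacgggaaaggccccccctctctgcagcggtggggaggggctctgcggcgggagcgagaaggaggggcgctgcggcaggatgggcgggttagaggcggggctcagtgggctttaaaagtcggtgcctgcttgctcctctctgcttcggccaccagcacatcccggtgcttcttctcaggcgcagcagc

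Of these 4 windows, the Meg3 window alone held TGACGTCA, 57 bases before the start, and TATAAA, 25 bases before the start with an overlapping match on the other strand. The window of another Meg3 start, chr12:109545148-109545447, is not printed and held neither of them and 1 CpG. Of 32851 windows of this length, 1.79% held TGACGTCA and 13.6% held TATAAA on either strand. The Mest window held GGGCGG (found in 35.7% of windows on either strand) and 17 CpG dinucleotides, the Meg3 window 13, the Dlk1 window 9 and the Rian window 0, against a median of 7 over all windows. H19 was not searched. Of the other members without a printed window, Peg3 also held TGACGTCA. A match is a description of the letters only.

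Several of these RNAs are also hosts of miRNAs. Shown here, as RefSeq GRCm38.p6 mature sequences with the seed (bases 2 to 8) in capitals, are miRNAs inside H19 (miR-675), Mest (miR-335) and Meg3 (miR-770), 3 of the 5 hosts among the members. Meg3 also holds miR-1906, which is not shown. No seed is shared among the 6.
miR-675-5p: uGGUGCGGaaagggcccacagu
miR-675-3p: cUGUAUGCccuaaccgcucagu
miR-335-5p: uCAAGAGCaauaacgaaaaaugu
miR-335-3p: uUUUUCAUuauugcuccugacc
miR-770-5p: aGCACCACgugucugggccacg
miR-770-3p: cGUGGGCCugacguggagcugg

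These libraries measured total RNA per gene, and the deposited table had 0 counts for the genes of miR-675, miR-335 and miR-770 in all 15 libraries, so the host levels below are no measure of the mature miRNAs. Among the miRNA genes not shown, Mir1906-1 in Meg3 had 57 counts over the 15 libraries. Mir1188 and Mir341 in Rian had 10 and 1, and Mir370 in Rian and Mir483 in Igf2 had 0.

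Of the 6 comparisons fitted, H19, Meg3 and Rian differed most between P0 Emcn+ and P0 Emcn- cells, and there 8 of the 10 genes were lower and 2 higher in both Emcn+ libraries without overlap. Over all genes tested, 33.6% were lower and 27.8% higher without overlap in this comparison. H19, the most abundant member per kb of exon in P0 Emcn- cells, had 5.23 and 11.5 CPM in Emcn+ replicates 1 and 2 against 243 and 1907 CPM in Emcn- replicates 1 and 2. Dlk1, which holds back adipocyte differentiation, had 0.285 and 2.01 CPM against 45.4 and 896 CPM. Meg3 had 1.81 and 7.42 CPM against 155 and 1739.65 CPM, and its neighbour Rian, a host of small nucleolar RNAs, 0.887 and 2.59 CPM against 78.2 and 465 CPM. All 4 RNAs were thus near the bottom of their range in both Emcn+ libraries, and in Emcn- cells they were higher in replicate 2. In a bulk library, fewer cells that make an RNA and less of it per cell cannot be told apart.

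The edgeR fit gave a log2 fold change (Emcn+ minus Emcn-) of -6.98 (standard error, SE, 0.93) for H19, -8.68 (SE 1.47) for Dlk1, -7.66 (SE 1.24) for Meg3 and -7.27 (SE 0.98) for Rian. Within batch d, Emcn- cells exceeded Emcn+ cells by 46.4-fold for H19, 159-fold for Dlk1, 85.8-fold for Meg3 and 88.1-fold for Rian. Within batch a the same folds were 166, 446, 234 and 179.7. Without P0 Emcn- replicate 2 the log2 fold changes were -4.83 for H19, -5.32 for Dlk1, -5.05 for Meg3 and -5.48 for Rian. The direction was therefore the same in each batch, while its size depended on the Emcn- library.

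The remaining genes of the growth pathway differed less. Plagl1, a zinc finger transcription factor, had 3.58 and 6.92 CPM in Emcn+ against 18.9 and 61.3 CPM in Emcn- cells, and Igf2r had 145 and 100.3 CPM against 444 and 256 CPM. Grb10 had 289.8 and 346 CPM against 566 and 698 CPM, close to 2-fold in each batch (1.95 and 2.02). Igf2 had 4.31 and 2.09 CPM against 4.36 and 25.1 CPM, so its lower level in Emcn+ cells was 12-fold in batch a and 1.01-fold in batch d, and its log2 fold change of -2.11 (SE 0.64) became -0.40 without P0 Emcn- replicate 2.

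Mest, of the alpha/beta hydrolase fold family, went the opposite way. It had 350.3 and 176 CPM in Emcn+ against 9.01 and 3.23 CPM in Emcn- cells, 38.9-fold and 54.5-fold higher within the batches (log2 fold change 5.38, SE 1.11). Peg3, a zinc finger protein gene, had 129 and 59.4 CPM against 22.8 and 43.3 CPM, with 5.65-fold in batch d and 1.37-fold in batch a. A gene counted as called when edgeR's quasi-likelihood test gave it an adjusted p (Benjamini-Hochberg) below 0.05 together with a log2 fold change beyond 1.5 in either direction. By it 1 member was higher and 6 were lower in Emcn+ cells, where 7.79% and 11.4% of all genes were called, and since the members were chosen on this contrast nothing is read from the count.

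**Figure D1:**
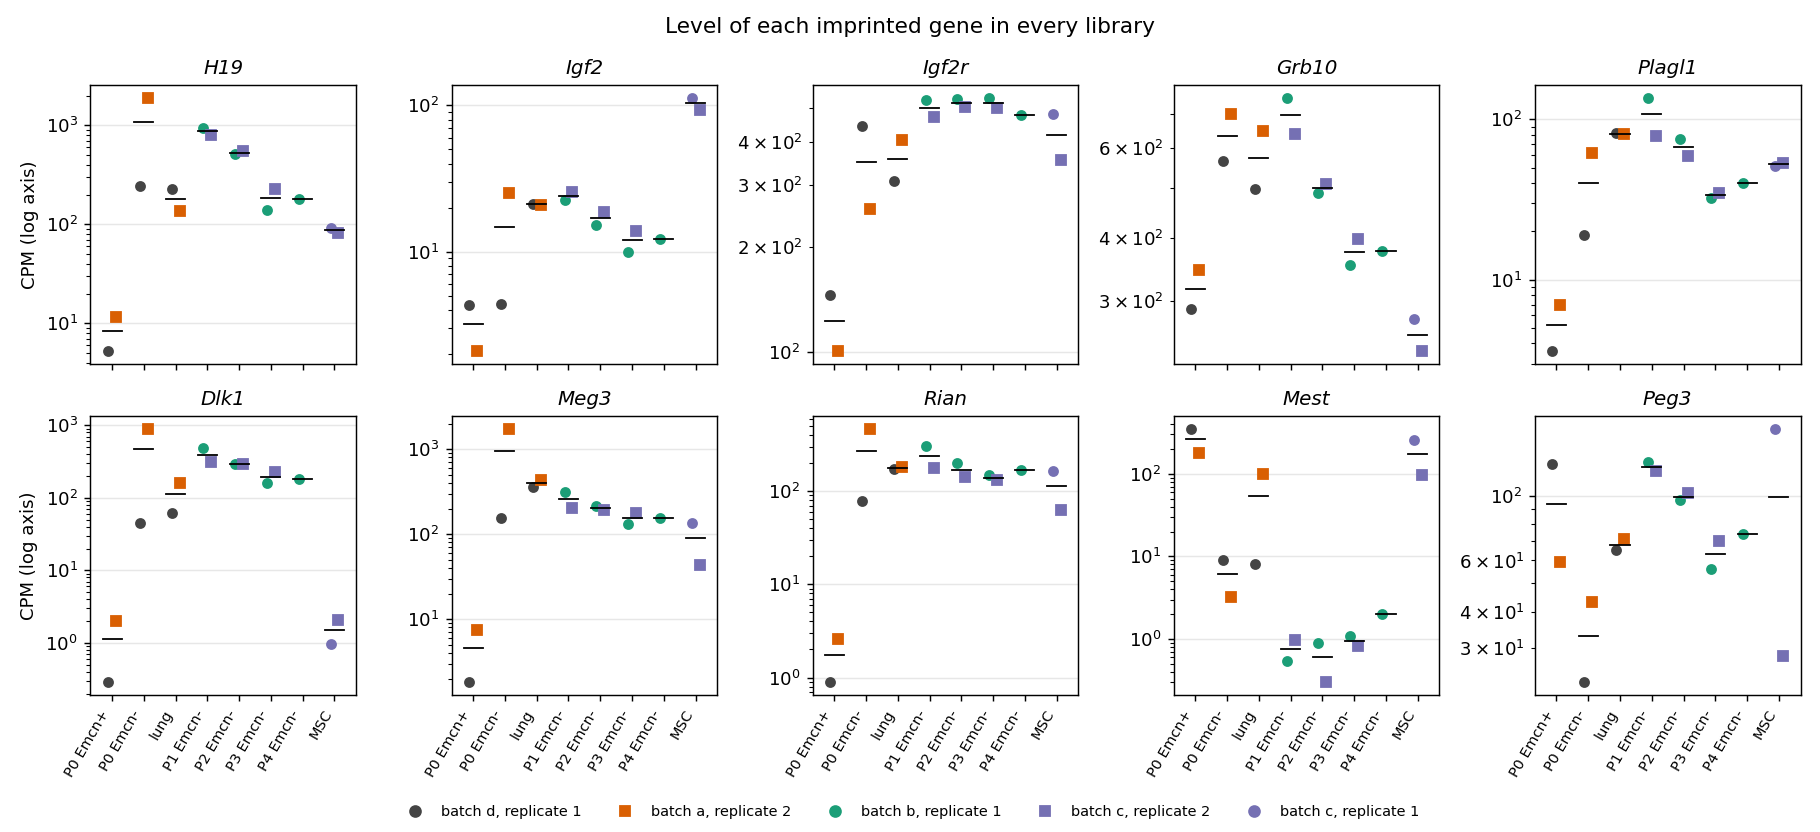
CPM (log axis) of each of the 10 genes in every library, by condition, with colour for batch, marker shape for replicate number and a black line for the mean of a condition. H19, Dlk1, Meg3 and Rian have their lowest mean in P0 Emcn+ cells, and Mest is near 1 CPM in P1 to P3 cells and above 90 CPM in P0 Emcn+ cells and MSC.

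In lung cells H19 had 227 and 135.05 CPM, below both P0 Emcn- libraries, and Dlk1 had 62.1 and 161 CPM. Meg3 had 357 and 436 CPM and Rian 172 and 179 CPM, each between the P0 Emcn- libraries. Within batch d lung exceeded P0 Emcn- cells for Dlk1 (1.37-fold), Meg3 (2.31-fold) and Rian (2.2-fold), and within batch a P0 Emcn- cells exceeded lung by 5.57-fold, 3.99-fold and 2.6-fold. The direction of these 3 genes between lung and P0 Emcn- cells thus differed between the batches. Igf2 (21.2 and 20.8 CPM) and Plagl1 (81.7 and 81.2 CPM) were nearly equal in the lung libraries, and Plagl1 was higher than in P0 Emcn- cells in both batches (4.33-fold and 1.32-fold). No member was called in either direction, where 2.13% of all genes were called higher and 1.70% lower by edgeR. DESeq2's Wald test called 1 higher and 1 lower, and its share over all genes is not given here. Without P0 Emcn- replicate 2 the fitted differences of Dlk1, Meg3, Rian, Igf2r and Grb10 changed sign.

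Mest was the member that separated the lung libraries, with 8.17 CPM in the first replicate against 99.3 CPM in the second. The endothelial markers summed to 167 CPM in lung replicate 1 and 755 CPM in replicate 2, and Cdh5 (VE-cadherin) had 39.5 and 171 CPM. For comparison, MSC replicate 1 had 255 CPM of Mest with 39.9 CPM of summed endothelial markers. The part of endothelial RNA in the Mest level of lung was not tested. Without lung replicate 2 the log2 fold change of Mest, lung minus P0 Emcn-, went from 3.10 (SE 1.01) to 0.42.

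From P0 to P1 the H19, Dlk1 and Rian levels of P1 cells lay within the wide range of the P0 Emcn- libraries. H19 had 942 and 795 CPM at P1, Dlk1 480.1 and 308 CPM, and Rian 302 and 176 CPM. Their log2 fold changes (P1 minus P0) were -0.15 (SE 0.71), -0.09 (SE 1.02) and -0.02 (SE 0.72), and 1.97, 3.26 and 1.75 without P0 Emcn- replicate 2. Meg3 had 316 and 206 CPM at P1, also inside the P0 range.

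Plagl1 (137 and 78.9 CPM), Peg3 (131 and 122 CPM) and Igf2r (526 and 472 CPM) were above both P0 Emcn- libraries at P1. Mest was below both, at 0.535 and 0.968 CPM, and stayed between 0.298 and 2.01 CPM through P4. Plagl1 was the 1 member called, higher, where 5.77% of all genes were called higher and 3.07% lower, and this count was not stable. No member was called higher with library totals in place of TMM factors, which moved the median of all genes by -0.16 on the log2 scale, or with ashr shrinkage. The same held without P0 Emcn- replicate 1 and without any 1 of the lung, P1, P2 or P3 libraries, while 4 were called higher without P0 Emcn- replicate 2.

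Over passages P1 to P3, 8 members were lower at P3 than at P1 in both batches, and the 2 P3 libraries lay below the 2 P1 libraries for each of them. Over all genes tested, 29.4% were lower and 23.0% higher without overlap at P3. H19 went from 942 to 515 and 139 CPM in batch b and from 795 to 546 and 226 CPM in batch c, so P3 had 14.8% and 28.4% of the P1 level. Plagl1 had 23.6% and 44.2% of its P1 level at P3, Igf2 44.3% and 54.4%, Grb10 46.8% and 62.4%, and Peg3 42.7% and 57.7%. The RNAs of the Dlk1 domain kept more of their P1 level in batch c than in batch b. Dlk1 had 33.5% in batch b and 74.2% in batch c, Meg3 42.1% and 86.6%, and Rian 49.4% and 74.0%.

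Igf2r was the exception among the abundant members, with 101.8% and 106% of its P1 level at P3 and CPM values of 501 to 535 at P3. The log2 fold changes (P3 minus P1) were -2.23 (SE 0.74) for H19, -1.65 (SE 0.48) for Plagl1, -0.86 (SE 0.19) for Grb10 and 0.09 (SE 0.29) for Igf2r. No member was called by edgeR, which called 0.0773% of all genes higher and 0.144% lower in this comparison. DESeq2's Wald test called 2 members lower, and its share over all genes is not given here. In the single P4 library each of the 8 was between its P1 and P3 levels of batch b, for example H19 at 19.1% and Grb10 at 50.01% of P1. Mki67 was 14.8 and 12.5 CPM at P1 and 46.4 to 53.0 CPM at P3 and P4, and other marker sums moved with passage as well. In batch b the 6 preadipocyte and adipocyte markers summed to 2348 CPM at P1 and 857 CPM at P3. In batch c these sums were 2344 and 861 CPM. Most of the sum at P1 was Lpl, which went from 2011 to 440 CPM and from 1853 to 522 CPM. Adipoq was also lower at P3 in both batches and Lepr was higher in both. Pparg, Cebpa and Fabp4 were higher at P3 in batch b and lower in batch c. From P1 to P3 the 8 macrophage markers together went from 72.8 to 17.7 CPM in batch b and from 233 to 14.4 CPM in batch c. The sum of the 6 osteolineage markers went from 1446 to 5611 CPM and from 1780 to 5408 CPM. Nearly all of it was Spp1, with 1423 to 5592 CPM and 1757 to 5387 CPM. Runx2 and Alpl were lower at P3 in both batches, and Sp7, Bglap and Ibsp had at most 0.903 CPM. The part of these and of cell division in the levels of the 8 genes was not tested.

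**Figure D2:**
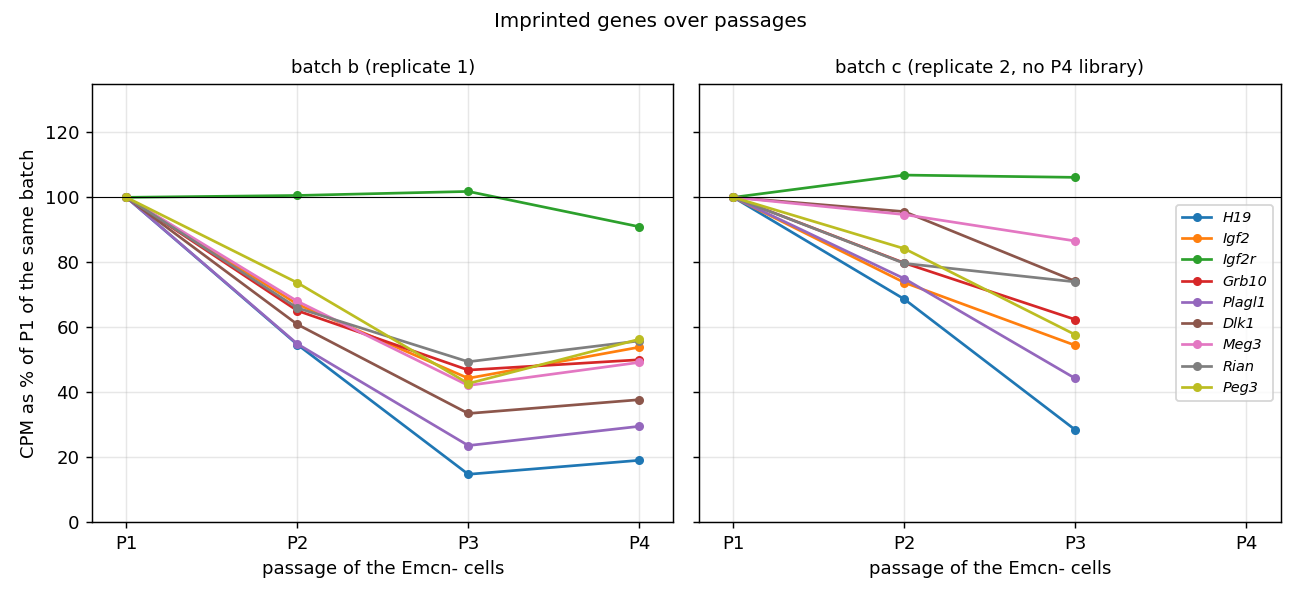
CPM of 9 of the genes at P1 to P4 as percent of the P1 library of the same batch, batch b on the left and batch c, which has no P4 library, on the right. Mest is left out because it was near 1 CPM, and Igf2r stays between 91.0% and 107% while the other 8 lines lie below 100% at P3 in both panels.

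MSC had their own pattern. Igf2 had 113 and 93.4 CPM, above every other library (highest 25.4 CPM), while H19 had 91.9 and 81.9 CPM, below every library except those of P0 Emcn+ cells. Dlk1 had 0.954 and 2.04 CPM, against 161 to 480.1 CPM in P1 to P3 cells. Its neighbours were present, with 137 and 43.1 CPM for Meg3 and 162 and 62.2 CPM for Rian. Low Dlk1 in MSC thus came with Meg3 and Rian well above their P0 Emcn+ levels, whereas in P0 Emcn+ cells all 3 were low.

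Mest had 255 and 95.4 CPM in MSC and Peg3 171 and 28.2 CPM, so the MSC libraries differed 6.07-fold in Peg3. The MSC libraries differed in several marker sets. Replicate 2 had more endothelial RNA, with Cdh5 at 156 CPM against 7.86 CPM in replicate 1. The fibroblast markers summed to 11320 CPM in replicate 2 against 19805 CPM in replicate 1, and the mural markers to 1939 against 1381 CPM. The part of these in the Mest and Peg3 differences was not tested. The log2 fold changes against P0 Emcn- cells were 2.95 (SE 0.64) for Igf2, 4.87 (SE 1.08) for Mest, -8.21 (SE 1.43) for Dlk1 and -3.53 (SE 0.78) for H19. Without P0 Emcn- replicate 2 they were 4.63, 4.36, -4.87 and -1.42. Against P1 to P3 cells they were 2.52 (SE 0.44), 7.77 (SE 0.79), -7.66 (SE 1.36) and -2.42 (SE 0.68).

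Within batch c, which holds both MSC libraries and replicate 2 of the passaged cells, P1 cells exceeded MSC by 323-fold and 151-fold for Dlk1 and by 8.65-fold and 9.71-fold for H19. MSC exceeded P1 cells by 4.44-fold and 3.67-fold for Igf2. The folds depended on the passage. P3 cells of this batch exceeded MSC by 240-fold and 112-fold for Dlk1 and by only 2.46-fold and 2.76-fold for H19. MSC exceeded P3 cells by 8.16-fold and 6.75-fold for Igf2. Against P0 Emcn- cells 2 members were called higher and 3 lower, where 11.3% and 7.45% of all genes were. Against P1 to P3 cells 2 were called higher and 2 lower, where 8.42% and 5.81% of all genes were. Nothing is read from these counts either.

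**Figure D3:**
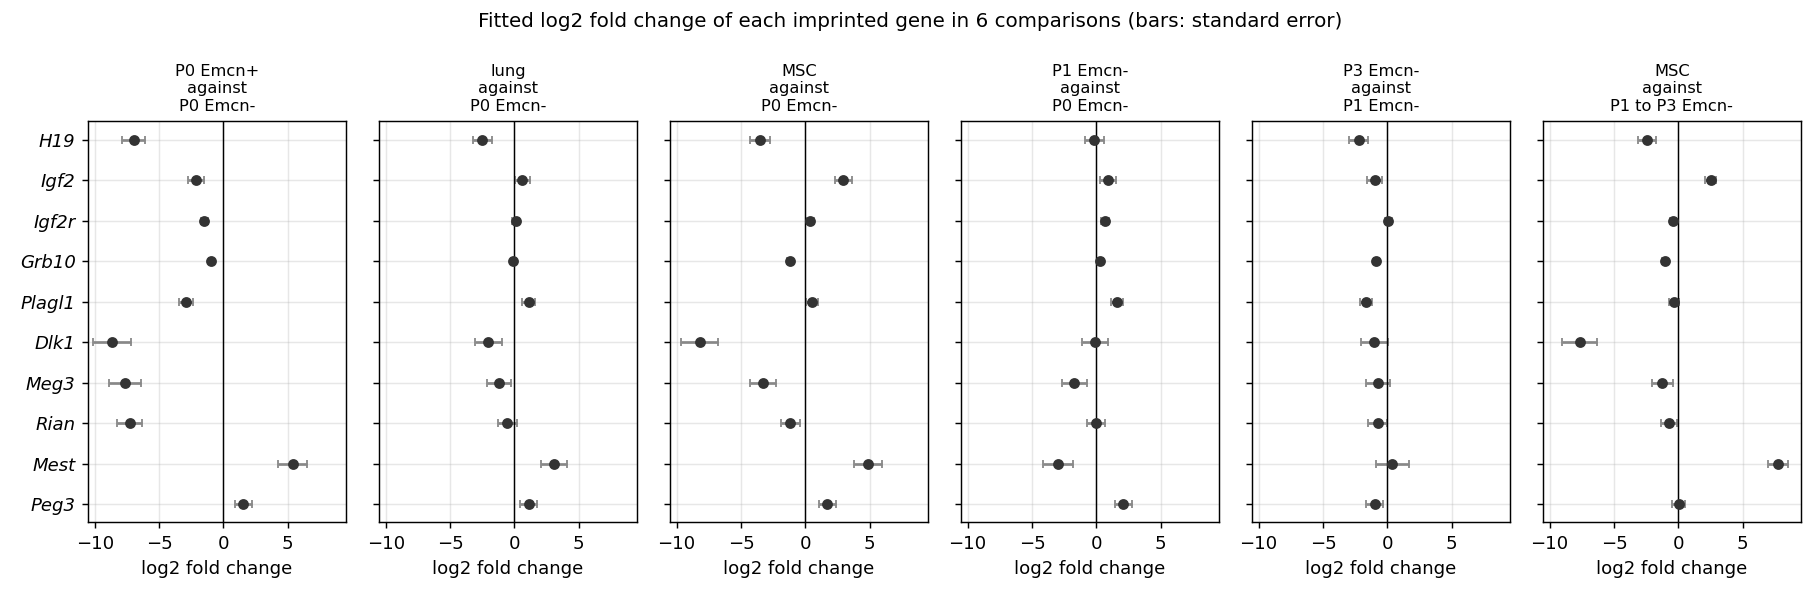
Fitted log2 fold change of each gene (point) with its standard error (bar) in the 6 comparisons, the first named group minus the second. Dlk1, Meg3 and Rian lie between -8.68 and -7.27 in P0 Emcn+ against P0 Emcn- cells, and in the 2 MSC panels Dlk1 is at -8.21 and -7.66 while Rian is at -1.16 and -0.75.

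Ratios of counts between neighbouring genes need no scaling between libraries. Dlk1 counts were 0.158 to 0.515 of Meg3 counts in the 6 P0 and lung libraries, 1.16 to 1.52 in the 7 passaged libraries, and 0.00699 and 0.0473 in MSC. The Meg3 to Rian ratio was 1.98 to 3.74 in P0 and lung libraries, 0.893 to 1.39 in passaged cells and 0.841 and 0.694 in MSC. In both ratios the P0 and lung libraries do not overlap the passaged ones, and in both each replicate 2 of P0 and lung was above replicate 1. Since these 2 blocks share no batch, batch and passage cannot be told apart here.

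The H19 to Igf2 ratio was 55.8 and 75.9 in P0 Emcn- cells. In batch b it was 41.7, 33.9, 13.9 and 14.7 from P1 to P4, and in batch c 31.3, 29.1 and 16.3 from P1 to P3. It was 10.7 and 6.48 in lung, 1.21 and 5.5 in P0 Emcn+ cells, and 0.814 and 0.877 in MSC. MSC were the 1 condition in which Igf2 counts exceeded H19 counts. From P1 to P3 each later passage had the lower ratio in both batches, and P4 was between the P3 values.

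**Figure D4:**
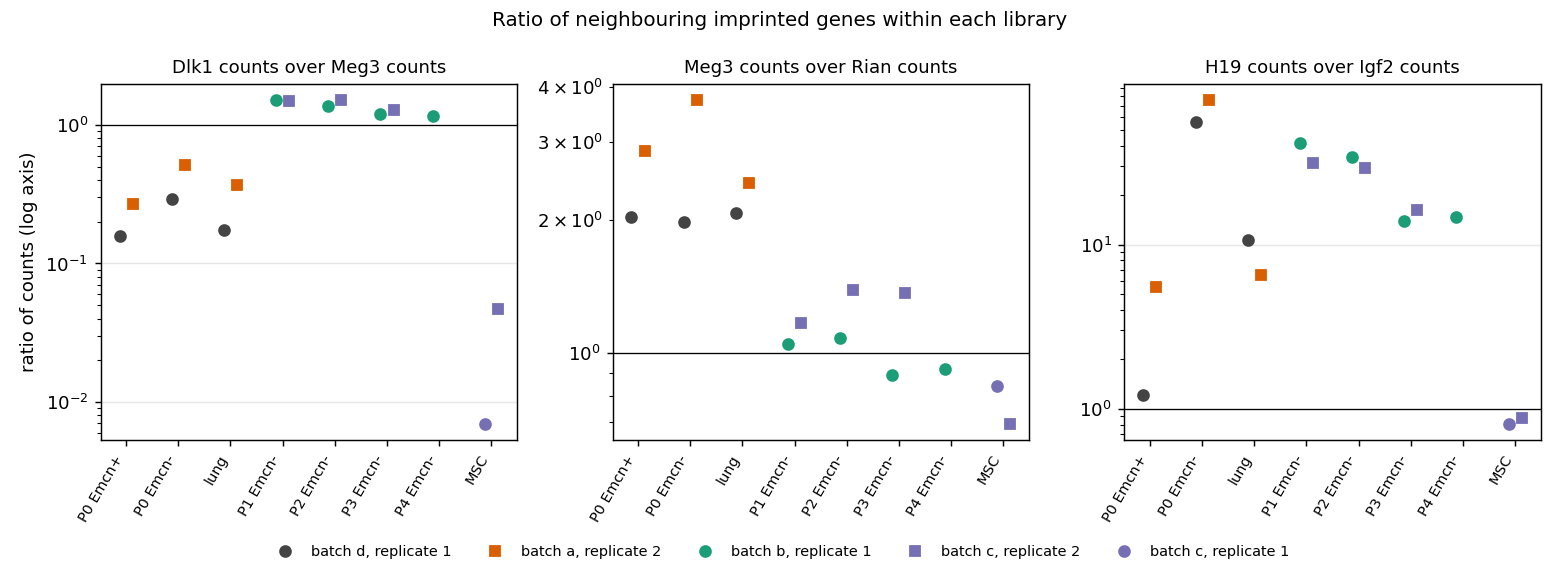
Ratio of counts within each library (log axis) for Dlk1 over Meg3, Meg3 over Rian and H19 over Igf2, by condition, with colour for batch and shape for replicate number; the line marks equal counts. The passaged libraries lie above 1 for Dlk1 over Meg3, and MSC lie below 0.05.

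Per kb of exon (union of annotated exons), H19 led the members in P0 Emcn- cells at 437 ± 478 CPM per kb (mean ± SD, n = 2), ahead of Dlk1 (83.2 ± 106), Grb10 (69.6 ± 10.3) and Meg3 (52.4 ± 61.9). The H19 libraries overlapped those of Dlk1 but lay above those of Grb10 and Meg3, and the ranges of Dlk1, Grb10 and Meg3 overlapped each other. With the longest transcript as the length, Dlk1 and Grb10 exchange places, as do Igf2 and Peg3 lower down. In P0 Emcn+ cells Mest was first at 66.7 ± 31.2 CPM per kb, ahead of Grb10 (35.0 ± 4.38). In MSC Igf2r (44.9 ± 9.55), Mest (44.5 ± 28.7) and H19 (35.3 ± 2.88) led, with the Igf2r and H19 libraries apart and both inside the range of Mest.

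Ordered by the mean CPM of the 8 conditions, H19 ran from P0 Emcn- over P1, P2, P3, lung, P4 and MSC down to P0 Emcn+ cells, where P0 Emcn- overlapped P1 and the P3, lung and P4 ranges overlapped each other in turn. Dlk1 ran from P0 Emcn- over P1, P2, P3, P4 and lung to MSC and P0 Emcn+ cells, and the last pair overlapped. For Igf2r every neighbouring pair overlapped down to P0 Emcn- cells, and P0 Emcn+ cells lay below. These orders are descriptions of 1 or 2 libraries a condition.

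Over the 15 libraries the log2 CPM of Meg3 and Rian correlated at r = 0.96, Dlk1 and Meg3 at 0.82, and H19 and Meg3 at 0.91. Dlk1 and Mest correlated at -0.88. Without the P0 Emcn+ libraries (n = 13) the same pairs gave 0.84, 0.66, 0.69 and -0.82, while H19 and Igf2 went from 0.43 to -0.24. The libraries share batches and differ in depth and cell type, and no test was made. The 5 genes most like H19 over the 15 libraries were Wnt11 (r = 0.97), Nova1 (0.96), Agtr1a (0.96), Zbtb8a (0.96) and Nfia (0.96). Those most like Dlk1 were Elmod3 (0.99), Acss3 (0.98), Slc1a5 (0.98), Ntrk2 (0.98) and Ndrg2 (0.97).

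Other imprinted genes were tested, on a list that was also drawn up with earlier results of these data known. The list of 54 had 52 in the table, of which 47 were tested. In P0 Emcn+ against P0 Emcn- cells 3 were higher and 10 lower (7.79% and 11.4% of all genes were), and their median log2 fold change was -0.40 against -0.06 over all genes. Dio3 and Mirg, of the Dlk1 domain, were among those that fell. Dio3, which inactivates thyroid hormone and lies 816 kb downstream of Dlk1, had 0.919 and 1.35 CPM in Emcn+ against 48.2 and 188 CPM in Emcn- cells (log2 fold change -6.67, SE 0.79, edgeR adjusted p = 0.000136). Mirg, a non-coding RNA downstream of Rian, had 0 and 0.0773 CPM against 2.17 and 15.03 CPM (edgeR adjusted p = 0.000776, with no fold given at so few counts).

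Outside the domain, Cdkn1c, a cyclin-dependent kinase inhibitor, fell by 4.99 (log2, SE 0.79, edgeR adjusted p = 0.000863), from 47.5 and 199.6 CPM in Emcn- to 2.12 and 5.49 CPM in Emcn+ cells. Ndn fell by 1.82 (SE 0.16, edgeR adjusted p = 2.6e-05). Kcnq1, a potassium channel gene, rose by 5.26 (SE 0.92, edgeR adjusted p = 0.00153), with 19.3 and 11.6 CPM in Emcn+ against 0.579 and 0.101 CPM in Emcn- cells. The last value is below the limit of 3 counts in that library (0.303 CPM), so the size of this fold is uncertain. Tfpi2, a protease inhibitor gene, rose by 2.28 (SE 0.73, edgeR adjusted p = 0.0339), and this call was lost without Emcn+ replicate 1 or without either P0 Emcn- replicate (adjusted p of 0.105 to 0.185). Rtl1, in the same domain as Dio3, was under 1 CPM in every library and was not called here (edgeR adjusted p = 0.0525), and Ins2, next to Igf2, had counts in 1 library alone.

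In lung against P0 Emcn- cells 1 of the 47 was higher and 1 lower, where 2.13% and 1.70% of all genes were, so these counts are near the background. Both are named after their values were seen. The transporter gene Slc38a4 had 9.86 and 4.15 CPM in lung against 1.01 and 1.51 CPM (log2 fold change 2.60, SE 0.57, edgeR adjusted p = 0.0284), and Asb4 had 3.40 and 3.87 CPM against 14.1 and 9.18 CPM (-1.63, SE 0.38, edgeR adjusted p = 0.0348). Dio3 had 16.3 and 29.2 CPM in lung, a log2 fold change of -2.31 (SE 0.62, edgeR adjusted p = 0.0635), and adjusted p = 0.0409 with the replicate block and 0.00208 by DESeq2.

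At P1 against P0 Emcn- cells 2 of the 47 rose and 0 fell, below the 5.77% and 3.07% of all genes, and at P3 against P1 edgeR and DESeq2 each called 0 of 47, with 9 at an unadjusted p under 0.05 by edgeR. Snhg14, a non-coding RNA of the Snrpn domain, had 16.8 CPM in both P1 libraries against 3.17 and 5.24 CPM (log2 fold change 2.19, SE 0.25, edgeR adjusted p = 0.000349). It was 13.6 to 18.9 CPM in all 9 passaged and MSC libraries and 2.90 to 5.24 CPM in all 6 P0 and lung libraries, which is also the division between the batches, so the 2 cannot be told apart. Slc38a4 rose by 2.47 (SE 0.57, edgeR adjusted p = 0.0176) to 6.04 and 6.13 CPM.

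In MSC 4 of the 47 were higher and 8 lower than in P0 Emcn- cells (11.3% and 7.45% of all genes were), and 1 was higher and 8 lower than in P1 to P3 cells (8.42% and 5.81% of all genes). Cdkn1c had 12.01 and 3.44 CPM in MSC against 234 to 313 CPM in P1 to P3 cells, a log2 fold change of -5.28 (SE 0.76, edgeR adjusted p = 0.000703). Asb4 had 0.477 and 1.43 CPM against 17.9 to 32.9 CPM (-4.64, SE 0.41, edgeR adjusted p = 4.9e-05). Dio3 had 50.4 and 18.1 CPM in MSC against 40.0 to 92.1 CPM (-1.09, SE 0.52, edgeR adjusted p = 0.138). Rtl1 was called lower (edgeR adjusted p = 0.00654), with no fold given because MSC had at most 0.0913 CPM, and the call was lost without MSC replicate 1 (adjusted p = 0.0626).

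Against P0 Emcn- cells, Snhg14 (log2 fold change 2.27, SE 0.25, edgeR adjusted p = 0.000152) and Snrpn (1.78, SE 0.28, edgeR adjusted p = 0.00116) rose in MSC. Kcnq1ot1, the antisense RNA of the Kcnq1 domain, fell by 1.87 (SE 0.26, edgeR adjusted p = 0.000649), Tfpi2 fell by 3.93 (SE 0.81, edgeR adjusted p = 0.00483) and Cdkn1c fell by 3.88 (SE 0.74, edgeR adjusted p = 0.00334). The Tfpi2 and Cdkn1c calls were lost when the fit held only the compared groups (adjusted p of 0.0605 and 0.0631). Dio3 in MSC against P0 Emcn- cells had an edgeR adjusted p of 0.0555, and of 0.0417 with the replicate block.

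The 12 partners of the IGF2 pathway (receptors, substrates, binding proteins and RNA-binding proteins) were all tested. In P0 Emcn+ against P0 Emcn- cells 6 were called lower and 0 higher, where 11.4% of all genes were called lower and 7.79% higher. The receptor genes went the other way without being called. Igf1r had 162 and 176 CPM in Emcn+ against 94.4 and 107 CPM, and Insr 192 and 234 CPM against 90.9 and 100 CPM. The receptor substrate genes Irs1 (log2 fold change -4.16, SE 0.31, edgeR adjusted p = 8.3e-06) and Irs2 (-3.87, SE 0.25, edgeR adjusted p = 3.5e-06) and the binding protein gene Igfbp6 (-5.62, SE 0.77, edgeR adjusted p = 0.000356) had the largest changes at 10 CPM or more. In lung 1 of the 12 was called higher, Igf2bp1 (edgeR adjusted p = 0.0272), at 1.88 and 5.39 CPM against 0.227 and 0.202 CPM. No fold is given, because P0 Emcn- replicate 2 was below its limit of 3 counts (0.303 CPM). Of all genes, 2.13% were called higher in lung and 1.70% lower. At P1 against P0 and at P3 against P1 edgeR and DESeq2 each called 0 of the 12, with 0 and 1 at an unadjusted p under 0.05 by edgeR. Of all genes, edgeR called 5.77% higher and 3.07% lower at P1 against P0. At P3 against P1 these shares were 0.0773% and 0.144%.

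In MSC, where Igf2 was highest, the binding protein gene Igfbp2 had 75.0 and 113 CPM against 0.287 to 3.25 CPM in P1 to P3 cells (log2 fold change 6.27, SE 0.81, edgeR adjusted p = 0.000409). Igfbp5 rose by 2.27 (SE 0.48, edgeR adjusted p = 0.00542), a call lost without MSC replicate 1 (0.96, adjusted p = 0.224). Igfbp3 fell by 4.95 (SE 0.93, edgeR adjusted p = 0.00305), Igf2bp3 by 3.79 (SE 0.52, edgeR adjusted p = 0.00053) and Igfbp6 by 2.32 (SE 0.59, edgeR adjusted p = 0.0141), the last lost without either MSC library (adjusted p of 0.073 and 0.111). Against P0 Emcn- cells 2 of the 12 rose and 4 fell in MSC, where 11.3% of all genes were called higher and 7.45% lower. Igfbp2 rose by 7.65 (SE 1.44, edgeR adjusted p = 0.00307) and Irs1 by 1.88 (SE 0.28, edgeR adjusted p = 0.000831), and Igfbp3 fell by 4.34 (SE 0.95, edgeR adjusted p = 0.00649), Irs2 by 1.83 (SE 0.23, edgeR adjusted p = 0.000319) and Igf2bp2 by 1.79 (SE 0.31, edgeR adjusted p = 0.0021). The Irs1 call was lost without MSC replicate 1 (1.44) and the Igfbp3 call without MSC replicate 1 (adjusted p = 0.0545) or in a fit of these groups alone (0.0721).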

How the data were processed

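The authors trimmed the reads, aligned them to GRCm38 (STAR), quantified Ensembl transcripts (Salmon) and summed the estimates per gene (tximport). They deposited a table of whole-number counts, not normalized, for 44674 genes in 15 libraries. By the methods these counts derive from Salmon estimates, and the rounding and the strand setting are not given in the sources used here.

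CPM values were scaled by the summed counts of a library. Differential expression was fitted in R 4.3.3 with edgeR 4.0.16 (TMM factors, filterByExpr with minimum count 10, quasi-likelihood test), 1 coefficient for each condition and all 15 libraries, on 19401 genes. A call needed an adjusted p (Benjamini-Hochberg, all tested genes) below 0.05 and a log2 fold change beyond 1.5 in size, the limits the study used with shrunken fold changes. SE is the log2 fold change divided by the square root of the F statistic. The self-test ran on simulated counts. Correlations used TMM-scaled log2 CPM with a prior count of 2.

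The 10 members and all gene lists were chosen with earlier results of these data known. Named besides the members were, per comparison and list, the 3 called genes with the largest change in each direction whose higher group had 10 CPM or more throughout, and Ins2, Mirg, Rtl1 and Dio3. Slc38a4, Igf2bp1, Uhrf1, Dnmt3b, Airn, Zfp57 and, in lung, Asb4 fall outside this rule and were named after their values were seen.

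Replicate libraries differed beyond counting noise in each condition (chi-square over its degrees of freedom from 35.7 to 114). Pairing comes from the labels, which give same-numbered libraries 1 batch among P0 and lung and 1 batch among P1 to P3. Deviations from group means correlated at 0.14 to 0.21 and at 0.35 to 0.45 for these, and at 0.00052 to 0.13 where no batch is shared. The limits of 3 counts cover counting error only. Alternatives were DESeq2 1.42.0 (Wald test, and shrinkage by ashr 2.2.63), RLE factors, library totals (chosen after seeing the data), no filter, at least 50 counts in 2 libraries, the replicate block (batch terms), fits of the compared groups alone, omission of single libraries, and calls without the fold limit.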

Additional observations from a re-analysis of the deposited data

How the results depend on the processing

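For the members and the genes named by the rule, every called result kept its direction under every alternative that gave a value. Slc38a4, Igf2bp1, Uhrf1, Dnmt3b, Airn, Zfp57 and, in lung, Asb4 fall outside the rule and were not followed over the alternatives. The count of other imprinted genes called (13, 2, 12, 2, 0 and 9 in the 6 comparisons, in the order P0 Emcn+, lung, MSC and P1 against P0 Emcn-, P3 against P1, and MSC against P1 to P3) stayed within 1.5 times of itself under 127 alternatives and moved further under 17. Without a fold change limit it was 22 for P0 Emcn+, 22 for MSC, 9 for P1 and 16 for MSC against P1 to P3. For lung it was 0 with only the compared groups. Leaving out each library in turn gave 10 to 16, 0 to 3, 9 to 12, 2 to 6, 0 to 0 and 9 to 10, with the 6 at P1 reached without P0 Emcn- replicate 2. A group reduced to 1 library was assumed to vary like the other groups.

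Of the 5 genes most like H19, 0 were among the leading 5 by Spearman correlation, 1 over the 8 condition means and 1 over 13 libraries without P0 Emcn+ (chosen after seeing the data); for Dlk1 these were 0, 3 and 1. With the replicate block the counts of other imprinted genes called were 11, 3, 13, 3, 0 and 9 in the same order. Among the non-members named by the rule, the block changed the call of Dio3 alone, in lung and MSC against P0 Emcn- cells. For P1 against P0 Emcn- cells the log2 fold changes of H19, Dlk1 and Rian near 0 changed sign with the block (0.24, 0.93 and 0.31). Of the alternative values for the members' log2 fold changes, 1321 stayed within 1 SD between replicates and 59 did not, mainly those without P0 Emcn- replicate 2 and those with ashr shrinkage. Among the non-members named by the rule 12 values lost and 16 gained a call, the gains for Dio3, Mirg and Rtl1. With 2 libraries a condition, the size of each difference from P0 Emcn- cells rests on how far those libraries lie apart.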

Other observations

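Genes that set or keep imprints were lowest, as a sum, in passaged cells. Of 10 listed, 8 were tested, and the summed level was 563 to 598 CPM in P0 Emcn+ cells, 418 to 587 CPM in P0 Emcn- cells, 413 to 430.1 CPM in lung, 253 to 325 CPM in passaged cells and 333 to 355 CPM in MSC. In P0 Emcn+ against P0 Emcn- cells edgeR called 0 of the 8, with 3 at an unadjusted p under 0.05. Of all genes, edgeR called 7.79% higher and 11.4% lower. DESeq2 called 1, Zfp57, and its share over all genes is not given here.

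At P1 against P0 Emcn- cells 1 of the 8 fell, where 3.07% of all genes were called lower. It was Uhrf1, which brings the maintenance methyltransferase to replicating DNA. Uhrf1 had 3.72 and 3.12 CPM against 63.6 and 8.88 CPM (log2 fold change -3.26, SE 0.78, edgeR adjusted p = 0.0204). Uhrf1 is also a gene of dividing cells, and cycling genes summed to 1078 and 137 CPM in the same P0 libraries; their part in this difference was not tested. In MSC against P0 Emcn- cells 1 of the 8 fell, where 7.45% of all genes were called lower. It was the de novo methyltransferase gene Dnmt3b, with 1.23 and 1.10 CPM against 3.27 and 5.55 CPM (-1.80, SE 0.37, edgeR adjusted p = 0.00454).

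Among other listed imprinted genes, Airn, the antisense RNA of Igf2r, fell in P0 Emcn+ cells, at 0.38 and 0.58 CPM against 8.89 and 8.37 CPM (log2 fold change -4.14, SE 0.29, edgeR adjusted p = 5.5e-06). Without a stated strand setting reads of Airn and unspliced Igf2r cannot be told apart.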
